A study of Mus musculus with 6 samples.

Results

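Brown fat and thermogenic genes are described here as a set of 10 genes taken by symbol, Ucp1, Cidea, Prdm16, Ppargc1a, Dio2, Slc27a2, Zic1, Ppara, Kcnk3 and Lhx8, out of the 55291 genes in the tables. They were selected on their levels in these same libraries, in which several were far higher in 1 mouse, and were read library by library to ask whether the dorsal skin of TSK 2, the second tight skin mouse, held brown fat in addition to the white fat of the dermis. Because measured values chose them, their levels and their calls in the fits over all genes are given as a description, and no p-value of theirs is used as support.

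Bulk RNA was sequenced from shaved dorsal skin of 3 wild-type (WT) and 3 tight skin (TSK) mice on a C57BL/6 background, with 1 library per mouse. The labels give every mouse as female and 6 to 8 weeks old, with no treatment, and the WT mice were littermates. The TSK allele is a germline duplication within Fbn1, which encodes fibrillin 1 of the extracellular microfibrils, and it was maintained by backcrossing to C57BL/6. Neither the labels nor the methods say how deep the skin was cut. The study's methods call the mice male, and Ddx3y, a Y-linked gene, stood at 56.7 to 72.8 CPM (counts scaled to a library total of 1000000) in all 6 libraries.

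Brown adipocytes burn fatty acids to make heat. Noradrenaline from sympathetic nerves reaches beta-adrenergic receptors, lipid droplets release fatty acids, and Ucp1 in the inner mitochondrial membrane lets protons flow back without making ATP. In mice the best known depot lies between the shoulder blades, below the skin of the upper back, while the dermis itself holds a layer of white adipocytes. Beige adipocytes are Ucp1-positive cells that arise within white fat. Ucp1 defines thermogenic fat, whereas Ppargc1a, Ppara, Prdm16, Zic1 and Dio2 are also expressed in other tissues.

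The sequence just upstream of a gene is part of its promoter, and it was read for short motifs because several members were high in the same library. The RefSeq promoter table (GRCm38.p6, the assembly also called mm10) was read over the 250 bases before each gene's RefSeq start. RefSeq and GENCODE, whose gene bounds are printed below, place some starts apart: the RefSeq start is 617 bases downstream in Slc27a2, 793 downstream in Ppara and 600 upstream in Dio2, and 0 to 99 bases away in the other 5 genes. Promoters of 8 of the 10 genes were searched on both strands, and those of Cidea and Kcnk3 were not read. The letters AGGTCA, the core that nuclear receptors such as Ppara bind, were found in 2 of the 8, Ucp1 and Slc27a2, and in 14.02% of all 32851 promoters of this length. These promoters are printed 5′ to 3′ in gene direction with AGGTCA or its reverse complement TGACCT in capitals, beside Zic1, which holds neither. Prdm16, Dio2, Ppara and Lhx8 also held neither and were highest in TSK 2, and Ppargc1a held neither and was not highest there.
Ucp1, chr8:83290098-83290347, plus strand: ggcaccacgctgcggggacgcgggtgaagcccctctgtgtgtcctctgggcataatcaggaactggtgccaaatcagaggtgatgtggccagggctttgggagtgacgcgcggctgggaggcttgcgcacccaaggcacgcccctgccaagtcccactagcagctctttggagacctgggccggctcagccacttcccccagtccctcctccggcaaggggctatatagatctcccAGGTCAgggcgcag
Slc27a2, chr2:126552774-126553023, plus strand: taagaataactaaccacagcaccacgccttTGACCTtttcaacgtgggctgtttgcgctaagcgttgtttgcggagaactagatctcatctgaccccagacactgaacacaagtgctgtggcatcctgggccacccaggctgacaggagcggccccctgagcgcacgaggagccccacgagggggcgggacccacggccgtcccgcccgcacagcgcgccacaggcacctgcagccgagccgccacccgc
Zic1, chr9:91365769-91366018, minus strand: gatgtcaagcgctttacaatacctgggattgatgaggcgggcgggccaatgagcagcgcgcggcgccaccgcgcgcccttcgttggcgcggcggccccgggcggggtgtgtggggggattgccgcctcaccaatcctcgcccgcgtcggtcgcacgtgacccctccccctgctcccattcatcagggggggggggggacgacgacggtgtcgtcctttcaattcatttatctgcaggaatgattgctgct
The motif began 14 bases before the RefSeq start in Ucp1 and 220 bases before that in Slc27a2, where it lies within the gene as GENCODE draws it. TATAAA, present in 12.4% of all promoters, was found in Dio2, as was TGACGTCA, the cyclic AMP response element, which 1.55% of promoters hold. CCAAT, present in 33.8%, was found in Prdm16 and Zic1. The promoters of Ppargc1a, Ppara and Lhx8 held none of the motifs. These matches describe the letters and do not show that a factor is bound.

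The effector genes carried the clearest difference between libraries. Ucp1 (chromosome 8, 83290352 to 83298452, mm10, plus strand) had 2, 0 and 0 counts in WT 1 to 3 and 2, 1536 and 0 counts in TSK 1 to 3. TSK 2 therefore held 99.7% of all Ucp1 counts of the series, and the other 5 libraries held 4 counts in all. Its level in TSK 2 was 79.9 CPM, with an exact Poisson 95% interval of 76.0 to 84.0 CPM that covers counting error only. Against WT 1 this was a ratio of 702 (95% interval from counting 194 to 5800) and against TSK 1 a ratio of 727 (201 to 6006). Against the libraries with no count it was at least 485-fold higher, taking 3 counts per library as the limit. Ucp1 overlaps no other gene in the tables, and its counts were whole numbers in all 6 libraries.

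Cidea, a lipid droplet protein of brown adipocytes that sebaceous gland cells also make, was found in every library. It stood at 5.92, 1.22 and 3.63 CPM in WT and at 3.96, 45.3 and 5.04 CPM in TSK. TSK 2 was 7.65 times the next library, WT 1, while TSK 1 and TSK 3 lay within the WT range. Kcnk3 (chromosome 5, 30588170 to 30625271), a background potassium channel of brown adipocytes, had 19, 11 and 9 counts in WT and 28, 568 and 21 counts in TSK. Its level of 29.6 CPM in TSK 2 was 19.1 times that of TSK 1, the next library. All 3 TSK libraries were above all WT libraries for Kcnk3 on the CPM scale, but not after TMM scaling. Kcnk3 shares its position with Gm9899 on the opposite strand, its counts were not whole, and Gm9899 was itself 6.76 times higher in TSK 2 than in the next library.

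Slc27a2 (chromosome 2, 126552407 to 126588243) encodes a fatty acid transporter and acyl-CoA synthetase. It had 10, 7 and 10 counts in WT and 12, 124 and 13 counts in TSK, so TSK 2 was 9.36 times the next library. Dio2 (chromosome 12, 90724552 to 90738438), the deiodinase that makes active thyroid hormone inside the cell, had 2.05, 1.86 and 2.42 CPM in WT and 3.19, 8.69 and 1.80 CPM in TSK. TSK 2 was 2.72 times TSK 1, and TSK 3 was the lowest library of all.

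The transcriptional regulators of the set did not share 1 pattern. Ppara (chromosome 15, 85734983 to 85802819), the nuclear receptor that controls fatty acid oxidation genes, stood at 9.83, 9.21 and 8.41 CPM in WT and 9.02, 20.0 and 8.16 CPM in TSK. TSK 2 was 2.03 times the next library, WT 1, on the CPM scale and 1.60 times the next library, WT 2, after TMM scaling, and the other 5 libraries lay close together. Lhx8 (chromosome 3, 154306294 to 154330659), a LIM homeobox factor used as a brown fat marker, had 1, 5 and 3 counts in WT and 23, 58 and 9 counts in TSK. All TSK libraries were above all WT libraries, and TSK 2 was 2.39 times TSK 1.

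Prdm16 (chromosome 4, 154316125 to 154636873), a coregulator that directs precursors to the brown fat fate, stood at 2.39, 4.42 and 3.30 CPM in WT and 6.54, 8.58 and 6.36 CPM in TSK. The groups did not overlap, and TSK 2 was only 1.31 times TSK 1. Zic1 (chromosome 9, 91358058 to 91365810), a zinc finger factor of dorsal mesoderm and of classical brown fat, stood at 2.16, 2.32 and 3.24 CPM in WT and 9.26, 4.88 and 9.44 CPM in TSK. The groups did not overlap here either, but TSK 2 was the lowest of the TSK libraries, at 0.517 times TSK 3. Zic1 overlaps Zic4 on the opposite strand and its counts were not whole. The summed level of 10 dermal fibroblast genes also differed between the groups, at 6396 to 9700 CPM in WT and 21046, 20665 and 47860 CPM in TSK 1 to 3. The sum is mostly collagen, and 8 of the 10 genes were higher in TSK 2 than in TSK 1. Its part in their levels was not tested.

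Ppargc1a (chromosome 5, 51454250 to 51567726), the coactivator that drives mitochondrial biogenesis in brown fat and in muscle, was the only member besides Zic1 that did not peak in TSK 2. It stood at 18.5, 34.4 and 29.4 CPM in WT and 23.6, 27.9 and 16.9 CPM in TSK, and the groups overlapped. The summed level of 12 adult skeletal muscle genes ran from 155398 CPM in WT 1 through 214866 CPM in WT 3 to 226469 CPM in WT 2. It ran from 134203 CPM in TSK 3 through 144411 CPM in TSK 2 to 154105 CPM in TSK 1. The WT libraries had the same order for Ppargc1a as for muscle genes. Among TSK libraries TSK 2 was highest for Ppargc1a and between the others for muscle genes, and the part of muscle was not tested. Ppargc1a overlaps 4 other genes, and its counts were not whole.

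**Figure D1:**
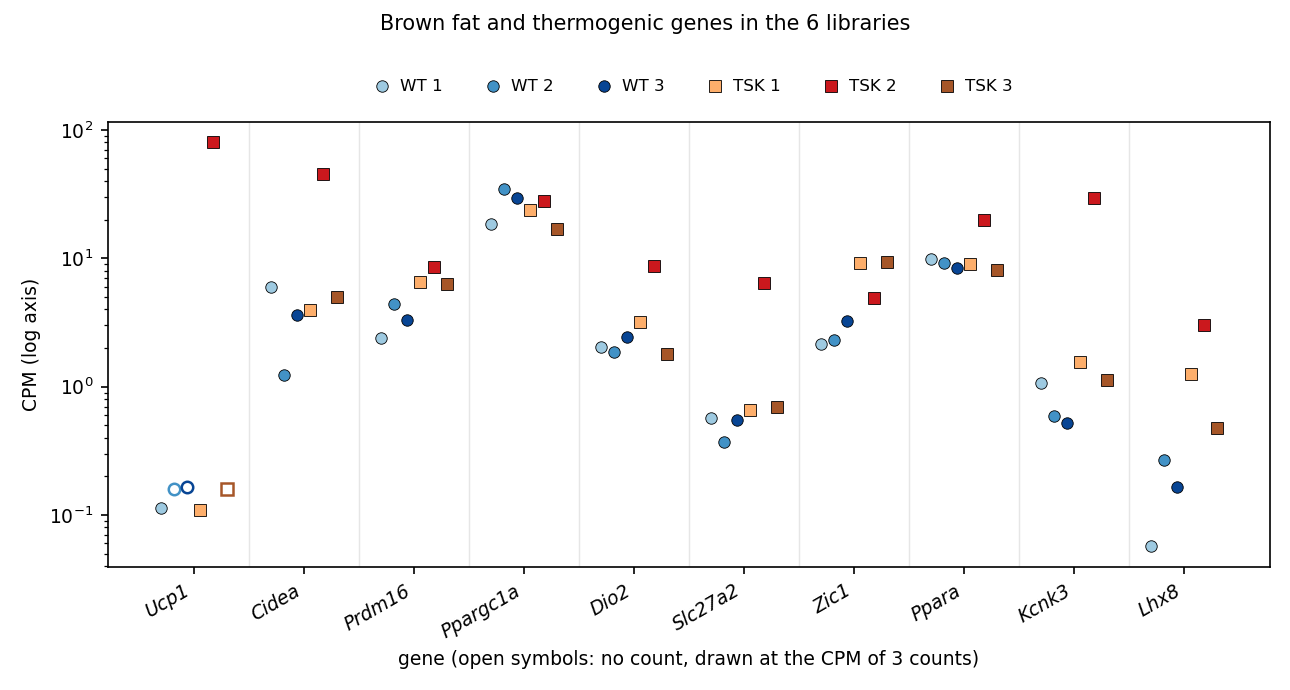
Level of each of the 10 genes in each library, in CPM on a log axis, with WT libraries as circles and TSK libraries as squares. Open symbols mark libraries with no count, drawn at the CPM of 3 counts. Ucp1 stands at 79.9 CPM in TSK 2 and near the counting limit elsewhere, whereas Zic1 is lower in TSK 2 (4.88 CPM) than in TSK 1 and TSK 3.

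TSK 2 was set against the highest of the other 5 libraries, gene by gene. Since the members were selected on these levels, the counts describe the choice and nothing is read from them. Of the 10 genes, 8 were highest in TSK 2 and 7 were at least 2-fold above the next library. Among all 22123 genes with at least 10 counts in some library, 26.9% were highest in TSK 2 and 1.52% passed this 2-fold limit. The order of the members among the 22123 genes was 1 for Ucp1, 3 for Kcnk3, 8 for Slc27a2, 14 for Cidea, 167 for Dio2, 220 for Lhx8 and 322 for Ppara. Of the members, Ppara was the nearest inside the limit at 2.03-fold, and Prdm16 the nearest outside it at 1.31-fold, at order 1306. After TMM scaling 6 genes passed, beside 1.22% of all genes, and Ppara no longer did.

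Other genes near the top of this order were named after their values were seen. Otop1, a proton channel known from brown fat, came next after Kcnk3, with 198 counts in TSK 2 and 1 to 11 elsewhere. Fasn, the fatty acid synthase, stood at 3710 CPM in TSK 2 against 318 CPM in the next library, and Scd1, a fatty acid desaturase, at 6275 against 774 CPM. A 2-fold excess over every other library was found for 25 to 137 genes in each WT library, 50 genes in TSK 1, 337 in TSK 2 and 315 in TSK 3. After TMM scaling these became 50 to 110, 47, 270 and 195 genes, so TSK 2 and TSK 3 held the most on both scales. Hoxc10, a posterior Hox gene listed among white fat genes, had 170 counts in TSK 3 and 0 in the other 5 libraries.

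**Figure D2:**
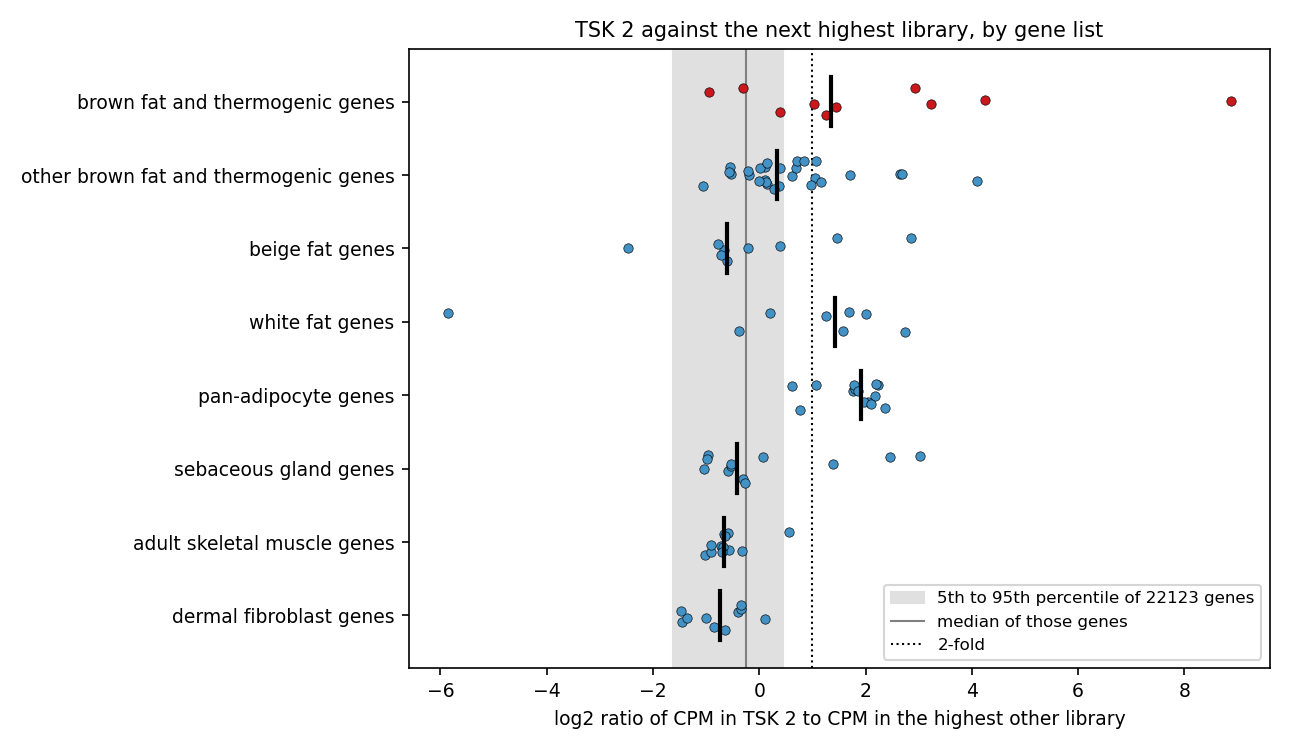
Log2 ratio of the CPM in TSK 2 to the CPM in the highest other library for each gene of 8 lists, with a short black line at each list's median. The grey band spans the 5th to 95th percentile of 22123 genes, the grey line is their median and the dotted line marks 2-fold. The brown fat and thermogenic genes spread from 0.517 times (Zic1) to 468 times (Ucp1, with WT 1 set to 3 counts), and pan-adipocyte genes lie together on the right, between 1.53 and 5.17 times.

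Genes that all adipocytes express were also high in TSK 2. Of 14 pan-adipocyte genes, 14 were highest in TSK 2 and 12 were at least 2-fold above the next library, with a median ratio of 3.78 against 0.839 for all genes and 2.55 for the 10 brown fat and thermogenic genes. Their summed level was 1029 to 1382 CPM in WT and 2025, 6458 and 1581 CPM in TSK 1 to 3. White fat genes were also high there, where 5 of 8 passed 2-fold, and their sum was 22.1 to 25.1 CPM in WT and 85.4, 263 and 72.7 CPM in TSK. Lep, the hormone leptin of white adipocytes, stood at 56.2 CPM in TSK 2 and at 1.37 to 13.9 CPM elsewhere. TSK 2 thus held the highest level of white fat genes as well as of Ucp1. In bulk skin, more cells of a type and more RNA per cell cannot be told apart.

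The members were therefore divided by adipocyte genes within each library. Adipoq, the adipocyte hormone adiponectin, had 216, 191 and 152 counts in WT and 869, 4754 and 628 counts in TSK. Ucp1 was 32.3% of Adipoq in TSK 2 (95% interval 30.5% to 34.2%, from the counting error of both genes). It was 0.926% (0.111% to 3.39%) in WT 1 and 0.230% (0.0278% to 0.834%) in TSK 1. In WT 2, WT 3 and TSK 3 its count of 0 allows up to 1.57%, 1.97% and 0.478% at 3 counts. The WT libraries held few Adipoq counts, so these limits are loose there, and TSK 1 and TSK 3 held more. With TSK 3 set to 3 Ucp1 counts, TSK 2 was 67.6 times TSK 3. The exact 95% upper limit of TSK 3 was higher, at 0.589%. The ratio of TSK 2 to TSK 1 was 140 (38.8 to 1160).

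Kcnk3 was the other member that was highest per Adipoq in TSK 2. It was 11.9% of Adipoq there, against 8.64%, 5.78% and 6.20% in WT and 3.24% and 3.39% in TSK 1 and TSK 3. The counting interval of TSK 2 (10.9% to 13.04%) lay inside that of WT 1 (5.19% to 14.1%) and overlapped that of WT 3 (2.66% to 11.5%). It lay above those of WT 2 (2.83% to 10.5%), TSK 1 and TSK 3. The rank of TSK 2 over WT 1 and WT 3 was therefore not detectable at this depth. For Kcnk3 the margin over WT 1 was 1.38 times, while TSK 2 was 3.60 times the mean of the other TSK libraries. Cidea did not stand out on this scale, at 18.3% of Adipoq in TSK 2, 12.04% to 48.1% in WT and 8.29% and 15.1% in the other TSK libraries. Slc27a2 was 2.61% in TSK 2 and 1.38% to 6.58% elsewhere. Prdm16, Ppargc1a, Dio2, Zic1 and Ppara were lowest per Adipoq in TSK 2. Adipoq itself was 5.17 times the next library there. A gene that other cells also make can therefore fall on this scale, and nothing is read from these ranks.

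When the sum of the 14 pan-adipocyte genes was used instead, 4 members were highest in TSK 2: Ucp1, Kcnk3, Cidea and Slc27a2. That sum includes Gpd1, Plin4 and Lpl, which muscle also makes. Without these 3 genes, a choice made after seeing the data, 2 members were highest in TSK 2, Ucp1 and Kcnk3, and Kcnk3 was 2.78 times WT 1. With all 14 genes Kcnk3 was 4.43 times, Slc27a2 1.80 times and Cidea 1.22 times the next library. Outside the set, Otop1 was 4.16% of Adipoq in TSK 2 (3.59% to 4.80%), 1.27% (0.630% to 2.28%) in TSK 1 and 0.318% (0.0385% to 1.16%) in TSK 3. The WT libraries held 1 to 3 Otop1 counts, and their upper limits of 3.72% to 4.11% overlap the interval of TSK 2. Nrg4, a growth factor secreted by brown fat, was 10.1% of Adipoq in TSK 2 and 17.6% in WT 1, but per pan-adipocyte sum it was highest in TSK 2, at 1.85 times WT 1 with all 14 genes and 1.16 times without the 3.

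**Figure D3:**
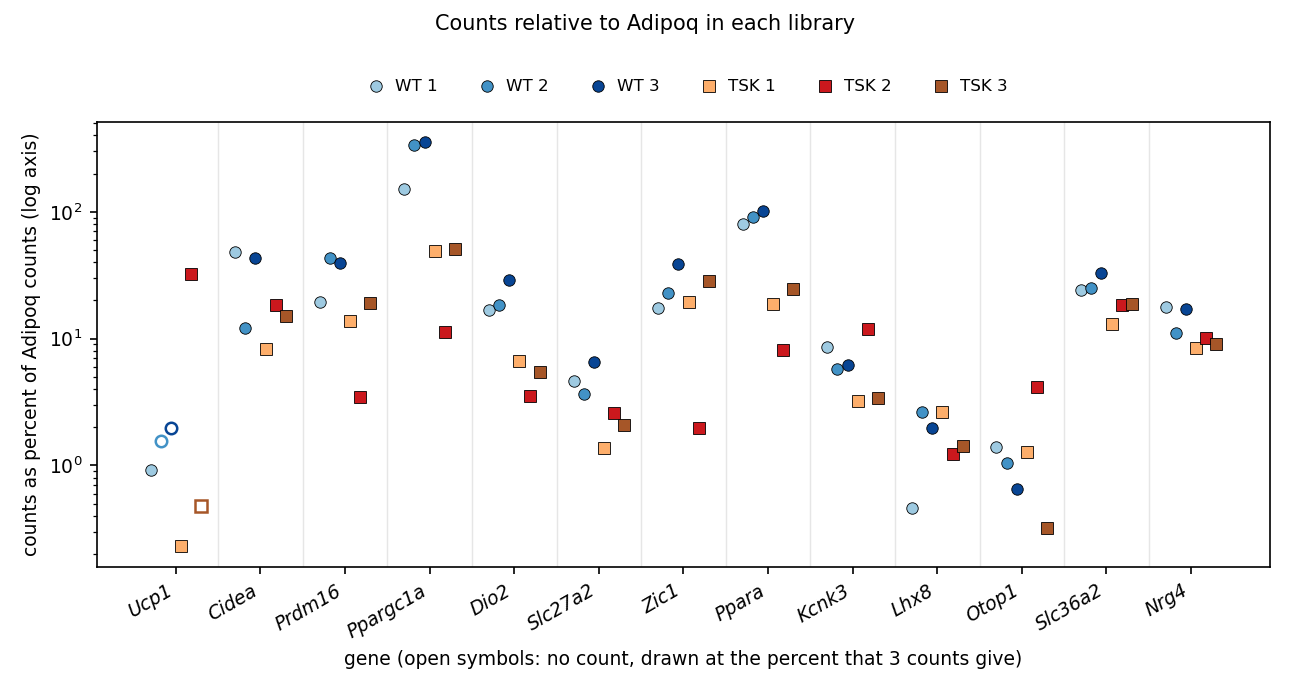
Counts of each member, and of Otop1, Slc36a2 and Nrg4, as a percent of the Adipoq counts of the same library, on a log axis. Open symbols mark libraries with no count, drawn at the percent that 3 counts would give. Ucp1 in TSK 2 is at 32.3%, above all other libraries. Kcnk3 at 11.9% is above WT 1 (8.64%) by less than the counting interval. Of the 10 members, 5 are lowest in TSK 2, where Adipoq itself is 5.17 times the next library.

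Cidea was next set beside sebaceous gland genes, a comparison chosen after its values were seen. In the 5 libraries other than TSK 2, Cidea counts were 2.31% to 3.29% of the summed counts of 11 sebaceous gland genes (Scd1, which adipocytes also make in quantity, was left out). This held although that sum ran from 795 counts in WT 2 to 4116 counts in TSK 3. In TSK 2 Cidea was 20.7% of the sebaceous sum. The sebaceous sum itself was 219 CPM in TSK 2 and 218 CPM in TSK 3, and 7 of the 11 genes were lower in TSK 2 than in TSK 3 while 4 were higher. Far2 and Fa2h, lipid enzymes of sebaceous glands, were among the lower (22.3 and 32.1 against 33.8 and 46.3 CPM). Mgst1, a glutathione transferase, was among the higher (81.6 against 31.4 CPM) and the largest part of the sum in TSK 2. The genes whose pattern over the 6 libraries was most like that of Cidea were Tmem45b, Slc25a1, Rgs7, Aldh1a7 and Clstn3. Their root mean square difference from Cidea was 0.38 to 0.53 on the log2 scale, among 17599 tested genes with a mean of at least 1 CPM. No such search was made for Ucp1, which did not pass the low-count filter.

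**Figure D4:**
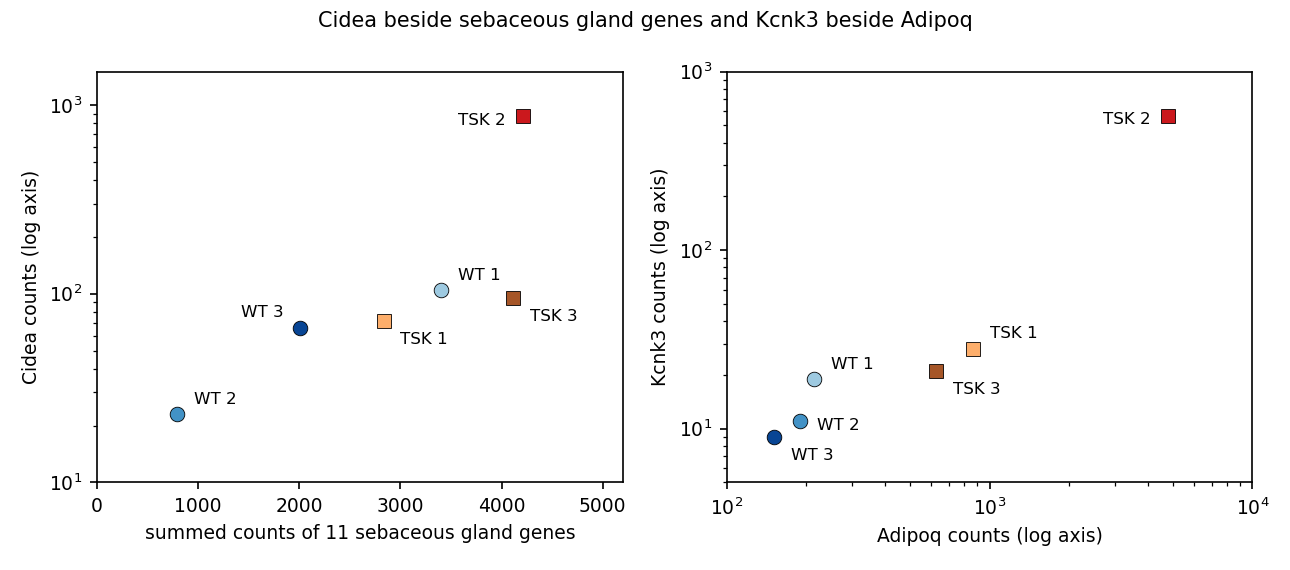
Left, Cidea counts (log axis) against the summed counts of 11 sebaceous gland genes in each library; right, Kcnk3 counts against Adipoq counts, both on log axes. On the left the other libraries keep Cidea at 2.31% to 3.29% of the sum, and TSK 2, at 871 Cidea counts, lies above them; on the right, TSK 2 has 568 Kcnk3 counts at 4754 Adipoq counts.

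Levels of different genes were compared as RPKM, CPM divided by the length of the merged exons in kb. In WT skin the order was Ppargc1a (4.16 ± 1.23), Cidea (3.22 ± 2.11) and Ppara (2.39 ± 0.186; SD, n = 3), whose ranges overlapped from neighbour to neighbour. A gap followed, and Zic1 (0.453 ± 0.103), Dio2, Prdm16, Kcnk3, Slc27a2, Lhx8 and Ucp1 (0.0232 ± 0.0402) came next, each overlapping its neighbour. In TSK 2 the order was headed by Ucp1 at 48.8 RPKM and Cidea at 40.6 RPKM, with Kcnk3 at 7.43, Ppara at 5.21 and Ppargc1a at 4.23 RPKM below them. Zic1 was last, at 0.857 RPKM. In TSK 1 and TSK 3 Cidea, Ppargc1a and Ppara led as in WT, and Ucp1 was last.

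The comparison of 3 TSK with 3 WT mice was made over all genes with edgeR, and Fbn1 was read first as the check of the genotype. Fbn1 stood at 267, 289 and 262 CPM in WT and 1538, 2284 and 2007 CPM in TSK (log2 fold change 2.54, SE 0.22, edgeR adjusted p = 0.00328). Of the 10 brown fat and thermogenic genes, 8 passed the low-count filter, and Ucp1 and Lhx8 did not. In edgeR none of the 8 passed an adjusted p of 0.05 in either direction, beside 2.71% of 19971 tested genes called higher and 0.681% called lower. At an unadjusted p below 0.05, 3998 of all tested genes passed. DESeq2 gave no adjusted p for Ucp1 and Kcnk3 and called 2 of the other 8 higher (Zic1 and Lhx8), beside 5.5% of the 20629 genes with an adjusted p. Limma-trend called 2 of the 8 higher (Zic1 and Prdm16), beside 8.82% or 8.87% of all genes with an offset of 0.1 or 1 CPM. With no low-count filter, edgeR called Ucp1, Lhx8, Kcnk3 and Zic1 higher, beside 2.99%.

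Most of the fitted changes rested on TSK 2. The members were chosen on these levels, so this is a description and nothing is read from it. The log2 fold change of Kcnk3 was 3.62 (SE 1.25) with all libraries and 0.63 (SE 0.41) without TSK 2. Cidea went from 2.09 (SE 0.91) to 0.10 (SE 0.46) and Slc27a2 from 2.10 (SE 0.91) to 0.18 (SE 0.42). Dio2 and Ppara changed sign, from 0.83 to -0.02 and from 0.15 to -0.36.

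Prdm16, Zic1 and Ppargc1a kept their direction when TSK 2 was left out. Prdm16 went from 0.78 (SE 0.29) to 0.64 (SE 0.33) and Ppargc1a from -0.58 (SE 0.30) to -0.74 (SE 0.34). Zic1 went from 1.32 (SE 0.32) to 1.57 (SE 0.25) and was then the only one of the 8 called higher, beside 1.57% of 20508 genes called higher and 0.293% lower without TSK 2. On the CPM scale 5 of the 10 genes had TSK libraries all above WT libraries (Prdm16, Zic1, Kcnk3, Slc27a2 and Lhx8), as did 29.1% of all tested genes, and none had them all below, as 2.58% of genes did. After TMM scaling 3 did, Prdm16, Zic1 and Lhx8, beside 14.1% of genes.

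**Figure D5:**
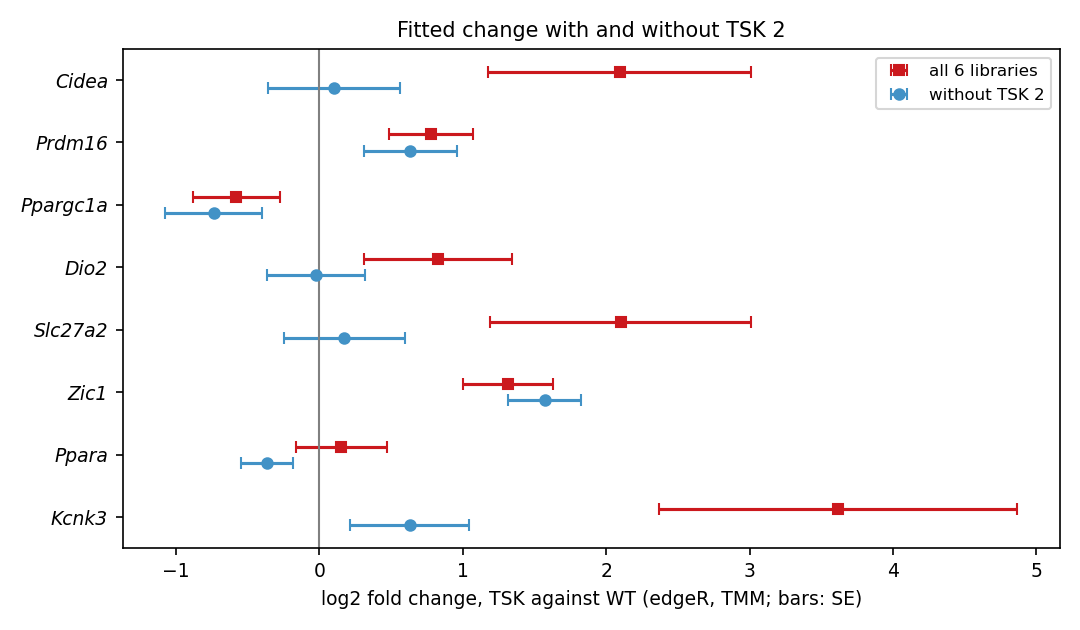
Log2 fold change of TSK against WT for the 8 genes that passed the low-count filter, from edgeR with TMM scaling, with bars of 1 SE. Red squares use all 6 libraries and blue circles leave out TSK 2: Kcnk3 falls from 3.62 to 0.63 and Cidea from 2.09 to 0.10, whereas Zic1 stays above 1.

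The wider programme was read from 30 other brown fat and thermogenic genes. Of these, 27 were tested, and 1 was higher and 1 was lower in TSK, beside 2.71% and 0.681% of all genes. Their median log2 fold change was 0.19 (-0.05 without TSK 2) against -0.03 for all genes. Ebf2, a transcription factor of brown and other adipocyte precursors, was 7.14 ± 2.36 CPM in WT and 22.7 ± 6.60 CPM in TSK (SD, n = 3; log2 fold change 1.39, SE 0.27, edgeR adjusted p = 0.0337). Without TSK 2 its change was 1.17 and its edgeR adjusted p was 0.0771, and it was 29.4 CPM in TSK 2 and 22.5 CPM in TSK 3. Ebf2 was also not called without TSK 3, WT 2 or WT 3. Ucp3, the uncoupling protein homologue of skeletal muscle, was 44.0 ± 7.61 CPM in WT and 29.8 ± 2.67 CPM in TSK (log2 fold change -0.84, SE 0.14, edgeR adjusted p = 0.0190). Ucp3 was also called without TSK 2 (edgeR adjusted p = 0.0362), but not with library size only, in limma-trend or without TSK 1, TSK 3 or WT 3. Of the 12 adult muscle genes, 4 were lower in TSK without overlap on the CPM scale, 1 was higher without overlap and 7 overlapped, beside 2.58% and 29.1% of all genes lower and higher without overlap. After TMM scaling 6 were lower, 1 was higher and 5 overlapped, beside 14.1% of all genes higher without overlap. The share of all genes lower on that scale is not given. The part of these muscle genes in the level of Ucp3 was not tested.

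In TSK 2, 7 of the 28 of these genes with enough counts were at least 2-fold above the next library, with a median ratio of 1.25, beside 1.52% of all genes. They were Otop1, Clstn3, Nrg4, Adrb3, Plin5, Letmd1 and Gk, named after their values were seen. After TMM scaling 5 passed, beside 1.22% of all genes, and Plin5 and Gk did not. Adrb3, the beta-adrenergic receptor of adipocytes, stood at 2.27 to 5.47 CPM in WT and 14.5, 47.1 and 7.64 CPM in TSK. Letmd1, a mitochondrial protein needed for thermogenesis, stood at 32.4 CPM in TSK 2 and 9.79 to 15.4 CPM elsewhere. Per Adipoq both were lowest in TSK 2, Adrb3 at 19.0% against 23.0% to 47.6% elsewhere and Letmd1 at 13.1% against 26.5% to 117%. Per pan-adipocyte sum Adrb3 was highest in TSK 2, at 1.02 times TSK 1, and Letmd1 was not. Without Gpd1, Plin4 and Lpl in the sum, Adrb3 in TSK 2 was 0.843 times TSK 1.

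Of the 10 most abundant genes of the list, Ucp3 was called and Pdk4, Ucp2, Cpt1b, Cox8b, Fabp3, Cox7a1, Ehmt1, Esrra and Slc25a20 were not. Several of them are known from muscle. The mitochondrial subunit Cox7a1 was 72.0 CPM in TSK 2 and 67.0 CPM in WT 2, the next library, and Cox8b was 110 and 102 CPM, but after TMM scaling both were lower in TSK 2, at 0.794 and 0.797 times the next library. Slc25a20, the carnitine carrier of mitochondria, was 53.1 CPM in TSK 2 and 22.0 to 29.7 CPM elsewhere. Elovl3, a fatty acid elongase of brown fat and of sebaceous glands, was 5.88 CPM in TSK 2 and 8.49 CPM in WT 1. Fgf21 had no count in any library, which allows up to 0.156 to 0.171 CPM.

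Beige fat genes were mixed in TSK 2. Their sum was highest there, at 107 CPM against 43.0 to 61.9 CPM in WT and 56.1 and 75.0 CPM in the other TSK libraries. Without Slc36a2 the sum was 61.4 CPM in TSK 2 and 68.7 CPM in TSK 3, the highest. Of 9 genes with enough counts, 2 passed 2-fold, and the median ratio to the next library was 0.652 against 0.839 for all genes. Slc36a2, an amino acid transporter of thermogenic fat, was the higher of these, at 45.6 CPM in TSK 2 against 2.54 to 6.26 CPM in the other libraries. Per Adipoq it did not stand out, at 18.4% in TSK 2, 24.4% to 33.02% in WT and 13.1% and 18.8% in TSK 1 and TSK 3. Per pan-adipocyte sum it was highest in TSK 2, at 1.78 times the next library, or 1.31 times without Gpd1, Plin4 and Lpl. Car4 was the other gene past 2-fold, at 6.97 CPM in TSK 2 and 2.53 CPM in TSK 1, the next library. P2rx5 was also highest in TSK 2, at 11.1 CPM against 8.47 CPM in WT 3, but only 1.00 times the next library after TMM scaling. Tmem26, Tnfrsf9, Tbx1, Cited1, Cd40, Hoxc9 and Sp100 were not highest in TSK 2, and Cited1 was below the 10-count minimum. None of the 9 tested was called in edgeR. Genes of sympathetic nerves summed to 13.3 to 19.1 CPM in WT and 12.4 to 13.4 CPM in TSK, with TSK 2 the lowest library.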

How the data were processed

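Libraries were stranded total RNA libraries depleted of ribosomal RNA and sequenced as single-end reads of 50 bases. Per the labels and methods, the authors used bcl2fastq 2.19.1.403, aligned reads with STAR to mm10 and quantified genes in Partek 11.0; whether counting used strand is not given in the sources used here. The table deposited by the authors as raw holds estimated counts, since only 43.3% to 45.4% of values above 0 were whole numbers (tolerance 0.001), and these were rounded although tests on raw counts had been planned. The CPM values were deposited by the authors as counts scaled to the library total, and a small offset at genes with no count was set to 0. Totals were 17561453 to 19219814 counts per library, and intervals cover counting error only.

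The members and all gene lists were chosen with earlier results of these data known. All genes were fitted with edgeR 4.0.16 in R 4.3.3 (quasi-likelihood test, TMM, filterByExpr, Benjamini-Hochberg over 19971 genes), and the code was tested on simulated data. TMM, a scaling that limits the weight of abundant genes, gave factors of 0.823 to 1.03 in WT and 1.06 to 1.13 in TSK. SEs were derived from the F statistic. Each library is 1 mouse, so the tests set the difference between groups against the spread between mice, estimated with information shared across genes. Alternatives were DESeq2 1.42.0, limma-trend (limma 3.58.1) on log2(CPM + 1) and log2(CPM + 0.1), other scalings, no low-count filter, a replicate block, muscle genes left out, and each library left out in turn. Same-numbered libraries were not paired, with correlations of their deviations of 0.0112, 0.167 and -0.0938. The set was named in full, other genes were named by level or call, and the comparison of TSK 2 with the next library, its 10-count minimum and the sebaceous ratio were chosen after the values were seen. Gene ends follow GENCODE M21, since the deposited ends lie 1 base beyond.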

Additional observations from a re-analysis of the deposited data

How the results depend on the processing

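TSK 2 has no replicate, and low counts limit Ucp1 and Lhx8. Of 111 member values under the alternatives, 99 kept direction and side of the threshold, 10 passed it only there and 2 changed sign, namely Dio2 (-0.0247) and Ppara (-0.36) without TSK 2; leaving out each library gave at most 1.22 and 0.39. Genes called higher at 0.05 numbered 542, and 1135 with DESeq2, 1685 with library size only, 1761 and 1771 with limma-trend (offsets 0.1 and 1), 1040 with no filter, and 45 to 713 leaving out each library (45 without WT 3, 226 without WT 2, 321 without TSK 2, 322 without TSK 3). Genes called lower numbered 136, and 409 with DESeq2, 347 with no filter and 15 to 547 leaving out each library (547 without WT 1, 15 without WT 3, 60 to 65 without TSK 2, WT 2 or TSK 3). The share of calls that were higher was 79.9%, and 94.8% with library size only, where the median log2 change of all genes was 0.25.

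At the study's thresholds, 51 genes were higher and 7 lower. These became 310 and 66 with DESeq2, 289 and 15 with library size only, 314 and 15 or 269 and 14 with limma-trend, 295 and 61 with no filter, and 84 and 15 with the replicate block. Leaving out each library gave 1 to 42 higher (1 without WT 3) and 0 to 7 lower. The replicate block changed no member's call.

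Of the other brown fat and thermogenic genes, 1 was higher and 1 lower. The higher count was 2 with DESeq2 and with the replicate block, 4 with library size only and with no filter, 4 or 3 with limma-trend, and 0 to 2 leaving out each library (0 without TSK 2, TSK 3, WT 2 or WT 3, and 2 without WT 1). The lower count was 0 with library size only and limma-trend, and 0 to 1 leaving out each library (0 without TSK 1, TSK 3 or WT 3). Ebf2 was called in every fit on all 6 libraries.

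Members with the highest ratio in TSK 2 were 4 per pan-adipocyte sum and 2 per Adipoq, per Plin1 or per that sum without Gpd1, Plin4 and Lpl. The Ucp1 ratio of TSK 2 over the next library, with libraries below 3 counts set to 3, was 74.5 per pan-adipocyte sum, 38.5 without those 3 genes, 16.4 per Adipoq and 14.5 per Plin1. Members with no overlap between groups were 5 on CPM and 3 after TMM scaling. This alternative and the sum without 3 genes were chosen after seeing the data. The cause of these shifts was not tested.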
